A study of Mus musculus with 2 samples.

Results

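The 10 neuropeptide genes Sst, Npy, Vip, Cck, Tac1, Tac2, Penk, Pdyn, Crh and Cort were followed across the cell types of the mouse hippocampus, in nuclei of mice with a conditional deletion of Stra8. They are 10 of the 32285 genes counted in both libraries, and they were chosen by name as precursors of peptide transmitters, not by their values. Each was counted in every named interneuron type, excitatory field and glial class, and the glia gave the reference level of a peptide transcript outside neurons. Whether glia make some of these transcripts was not tested.

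Neuropeptides are cut from larger precursor proteins in the secretory pathway, packed into dense core vesicles and released along with a fast transmitter. They act on receptors coupled to G proteins, over longer distances and times than GABA or glutamate. In the hippocampus the peptides are also the classical labels of GABAergic interneurons: somatostatin of cells that innervate distal dendrites, neuropeptide Y of neurogliaform and ivy cells, vasoactive intestinal peptide of cells that innervate other interneurons, and cholecystokinin of a class of basket cells, while the mossy fibres of granule cells are known for dynorphin.

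There were 2 single-nucleus libraries from the hippocampus of 3-month-old mice, 1 labelled male and 1 labelled female, both of the genotype Stra8L/-; Nestin-Cre. Nestin-Cre acts in neural progenitors, so neurons, astrocytes and oligodendrocytes descend from cells that had the recombinase, and microglia do not. No library of another genotype was analysed here, so no effect of the deletion can be read from these data. With 1 library for each sex, a difference between the libraries cannot be told apart from one between animals, dissections or captures, and no test was made.

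The male library held 103262825 unique molecular identifiers (UMIs, tags that count each captured molecule once) over 16174 barcodes, and the female library 108286856 over 20150. After filtering, 13797 male and 16980 female nuclei were kept, with a median of 4332 and 2680 UMIs, and 101 of the deposited barcodes occurred in both libraries. Interneurons were deeper than glia: the median was 7777 UMIs in male Sst-like nuclei and 1653.5 in male oligodendrocytes. Clusters were formed and named without the 10 genes, so that the levels below did not name the types. Of 638 male and 568 female GABAergic nuclei, 145 and 97 were Sst-like, 145 and 93 Pvalb-like, 106 and 84 Lamp5-like, 57 and 45 Vip-like, 70 and 38 Cck-like, and 115 and 211 could not be named. Stra8, the targeted gene, had 2 UMIs over all male and 4 over all female nuclei and 0 in GABAergic nuclei, and with no library of another genotype this does not check the labels. "Like" means that at least 3 known markers of the type were enriched, such as Grin3a and Elfn1 in the Sst-like, Pvalb and Syt2 in the Pvalb-like, Lamp5 and Sv2c in the Lamp5-like, Prox1 and Calb2 in the Vip-like, and Cnr1 and Slc17a8 in the Cck-like nuclei. Not every listed marker was enriched, in counts scaled to a common total of UMIs (CPM). Pde11a, listed for the Sst type, had 3.23 CPM in male Sst-like nuclei and 291 in the other named interneuron types. The female values were 8.34 and 409. Sema3c, listed for the Vip type, had 61.3 and 91.6 CPM in the male and 35.3 and 99.1 in the female library.

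The 10 genes are short. On the mm10 build with GENCODE vM21, the 2-exon Sst gene lies on the minus strand at chr16:23889573-23890958, and the longest, Pdyn, spans 13280 bases at chr2:129686565-129699844. The median span of 16007 protein-coding genes was 25109 bases, and 31.4% of them were no longer than Pdyn. Npy lies at chr6:49822710-49829507, Vip at chr10:5639218-5647617, Cck at chr9:121489824-121495694, Tac1 at chr6:7554879-7565834 and Tac2 at chr10:127724478-127731768. Penk lies at chr4:4133531-4138819, Crh at chr3:19693401-19695396 and Cort at chr4:149125034-149126763. Nuclear RNA is rich in introns, of which short genes have little.

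Sst and Vip are textbook targets of the cyclic AMP response element binding protein, and the promoters are shown for the element it binds. RefSeq promoters (GRCm38.p6) were found for 8 of the 10 genes, all but Penk and Crh. The palindrome TGACGTCA was searched in the 250 bases before the transcript start on both strands, and its shorter form as TGACG or CGTCA, which also lies inside the palindrome. The palindrome was found in 508 of 32851 promoters (1.55%), and among the 8 genes only in Sst. The shorter form was found in 5836 promoters (17.8%), and in Sst, Vip, Cck, Tac1 and Cort, while Npy, Tac2 and Pdyn had neither. A match describes these letters and is no evidence of binding. The windows are given 5′ to 3′ on the gene's strand, with the match in capitals. The Sst and Tac1 windows are shorter because they lie inside the longer gene models of GENCODE.
Sst: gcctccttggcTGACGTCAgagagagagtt
Vip: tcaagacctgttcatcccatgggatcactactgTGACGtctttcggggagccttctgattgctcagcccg
Cck: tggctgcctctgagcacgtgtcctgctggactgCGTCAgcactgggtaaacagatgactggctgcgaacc
Tac1: ggctctacaggctCGTCAcgcctgagataa
Cort: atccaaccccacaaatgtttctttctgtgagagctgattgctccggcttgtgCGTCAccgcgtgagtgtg
The match begins 48 bases before the start in Sst, 79 in Vip, 47 in Cck, 43 in Tac1, which has a further CGTCA 197 bases before the start, and 18 in Cort. The windows are chr16:23890874-23890903 for Sst, chr10:5639106-5639175 for Vip, chr9:121495705-121495774 for Cck, chr6:7555005-7555034 for Tac1 and chr4:149126764-149126833 for Cort, with Vip and Tac1 on the plus strand and the others on the minus strand.

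Among the 5 interneuron, 5 excitatory and 4 glial types compared, somatostatin transcripts were most abundant in the Sst-like interneurons, and the other 13 types had a lower level per nucleus. Sst, the precursor of somatostatin, which inhibits dendrites and hormone release, gave 2.79 UMIs per nucleus in the male Sst-like nuclei (404 UMIs, exact Poisson 95% interval 2.52 to 3.07) and 1.35 in the female (131 UMIs, 1.13 to 1.60). The other 4 interneuron types held 0.132 to 0.193 in the male and 0.133 to 0.215 in the female library. Outside the interneurons, the 5 excitatory types held 0.165 to 0.224 in the male and 0.112 to 0.140 in the female, and the 4 glial classes 0.164 to 0.243 and 0.110 to 0.145. All intervals in this text cover counting error alone.

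The number of Sst molecules differed widely among the Sst-like nuclei. In the male library 47 of 145 had none, 55 had 1 or 2, 35 had 3 to 9 and 8 had 10 or more. A single male nucleus held 52 UMIs, and the next 20. Without that nucleus the male level was 2.44 per nucleus. In the female library 43 of 97 had none, 36 had 1 or 2 and 18 had 3 to 9, with a highest value of 9. The top 10% of nuclei carried 52.5% of the male and 43.5% of the female Sst UMIs in the type. Detection in the remaining cells did not mark a type: 15.9% of male Pvalb-like nuclei had a Sst UMI, at a median of 9469 UMIs, and so did 16.0% of male oligodendrocytes, at a median of 1653.5. At least 3 UMIs in 1 nucleus set the types apart better. That was met by 44 of 523 male nuclei of the 5 named interneuron types and 21 of 4494 male glia, and by 19 of 357 and 9 of 6195 in the female library.

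**Figure D1:**
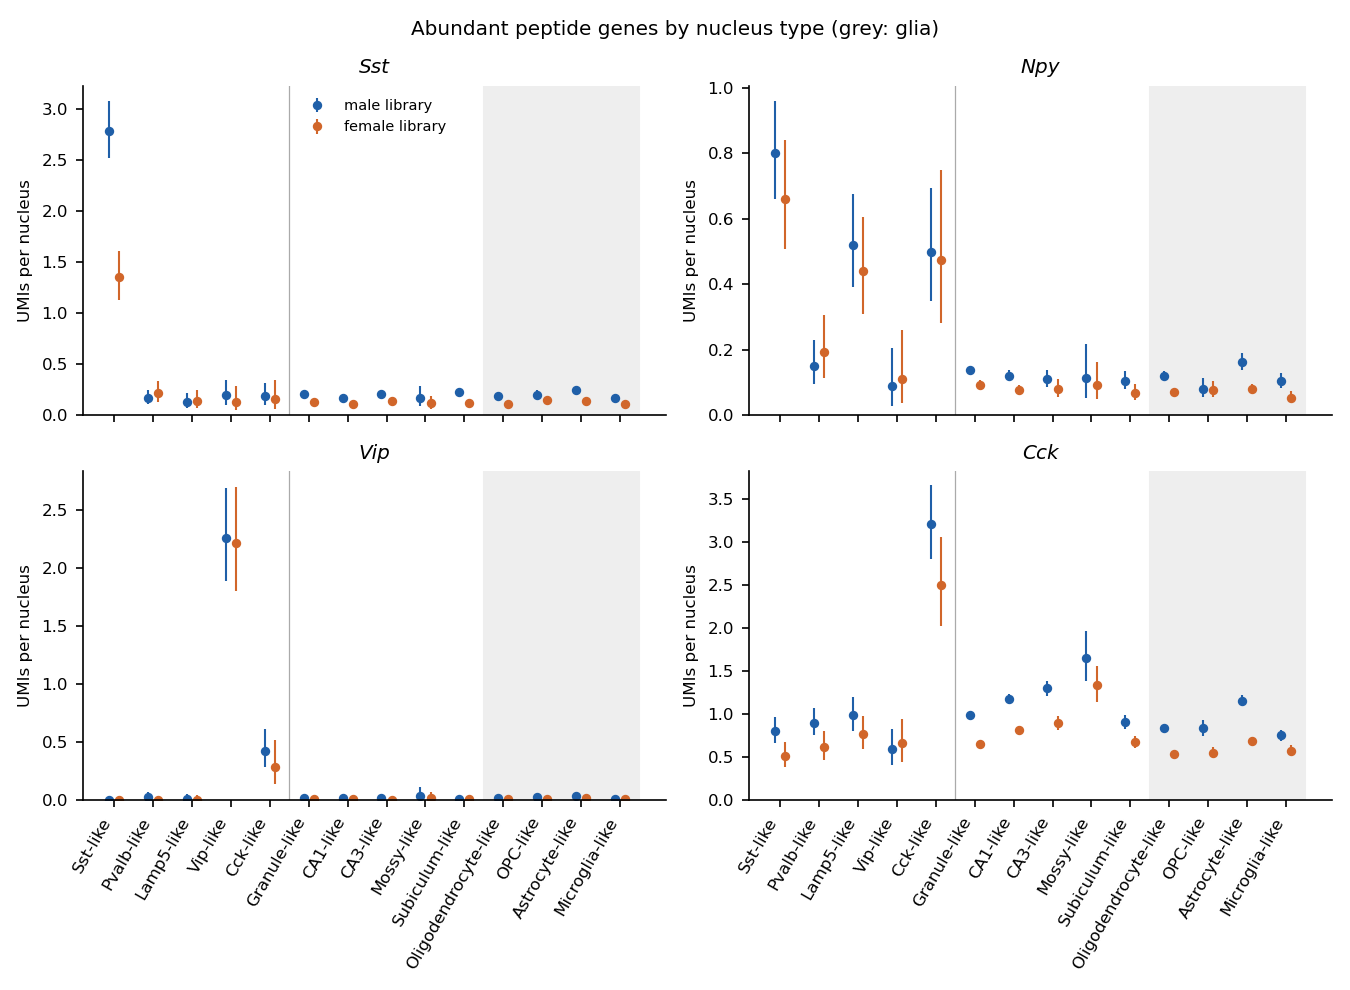
UMIs per nucleus (vertical axes) of Sst, Npy, Vip and Cck in 14 types (horizontal axes: 5 interneuron types, 5 excitatory types and 4 glial classes on grey) of the male (blue) and the female (orange) library, with exact Poisson 95% intervals of counting error. Sst reaches 2.79 and 1.35 in the Sst-like and Vip 2.26 and 2.22 in the Vip-like nuclei.

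Vip was the most restricted of the abundant genes. Vip encodes vasoactive intestinal peptide, carried by interneurons that mainly contact other interneurons. The Vip-like nuclei held 2.26 UMIs per nucleus in the male (129 UMIs, 1.89 to 2.69) and 2.22 in the female library (100 UMIs, 1.81 to 2.70), and 61.4% and 57.8% of them had at least 1. Glia held 0.0157 to 0.0401 in the male and 0.0114 to 0.0169 in the female, and no glial nucleus had 3 or more, against 20 of 57 male and 15 of 45 female Vip-like nuclei. The Cck-like nuclei came next, with 0.429 (30 UMIs) and 0.289 (11 UMIs). The female value rests on few cells: 3 of 38 nuclei, or 7.89%, had a Vip UMI, and 1 of them held 9. Vip was not detected in 97 Sst-like, 93 Pvalb-like and 84 Lamp5-like female nuclei, for which the exact upper limits on the share of nuclei with a UMI are 3.73%, 3.89% and 4.30%.

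By UMIs per nucleus, Npy was above the glia in the Sst-like, Lamp5-like and Cck-like interneurons. Npy encodes neuropeptide Y, which damps glutamate release. Its level was 0.800 UMIs per nucleus in the male and 0.660 in the female Sst-like nuclei, 0.519 and 0.440 in the Lamp5-like, and 0.50 and 0.474 in the Cck-like. The Vip-like nuclei (0.0877 and 0.111) and the male Pvalb-like nuclei (0.152) overlapped the glia in their intervals, and the female Pvalb-like nuclei (0.194) lay above them but under 3 times the highest class. Glia ranged from 0.0801 to 0.163 in the male and from 0.0521 to 0.0799 in the female, with the astrocytes highest in each library. In CPM (counts scaled to a common total of UMIs) no type was called: the Cck-like nuclei (39.7 and 31.7 CPM) lay below the oligodendrocytes (66.4 and 37.7 CPM), and the male Lamp5-like nuclei (67.3 CPM) were level with them. After thinning, in which 1000 UMIs were drawn from each nucleus, an Npy UMI was left in 5.71% of male and 0% of female Cck-like nuclei and in 6.23% and 4.05% of oligodendrocytes. Npy was concentrated in few nuclei of a type. In the Sst-like class 106 of 145 male and 73 of 97 female nuclei had none, and the top 10% carried 74.1% of the male and 76.6% of the female UMIs.

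Of the 4 abundant genes, Cck stood least above the glia. Cck encodes cholecystokinin, found in a class of basket cells and, at lower levels, in pyramidal neurons. The Cck-like nuclei held 3.21 UMIs per nucleus in the male (225 UMIs, 2.81 to 3.66) and 2.50 in the female library (95 UMIs, 2.02 to 3.06). Hilar mossy cells came next with 1.66 and 1.34, and CA3 pyramidal neurons held 1.30 and 0.895. Glia held 0.756 to 1.16 and 0.545 to 0.689, and 353 of 4494 male glia had 3 or more Cck UMIs, with 42 in 1 oligodendrocyte. Relative to each type's total, in CPM, the order turned over: male oligodendrocytes held 461 CPM of Cck and male Cck-like nuclei 255, and the female values of microglia and Cck-like nuclei were 334 and 168. Mossy cells held 86.7 and 62.3 CPM and CA3 neurons 113 and 73.2, below the lowest glial class of each library (252 and 163). Depth moved with this reversal: the median was 1550 to 1728 UMIs in oligodendrocytes and microglia of both libraries and 11931 and 11555.5 in the Cck-like nuclei. Its part in the result was not tested.

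**Figure D2:**
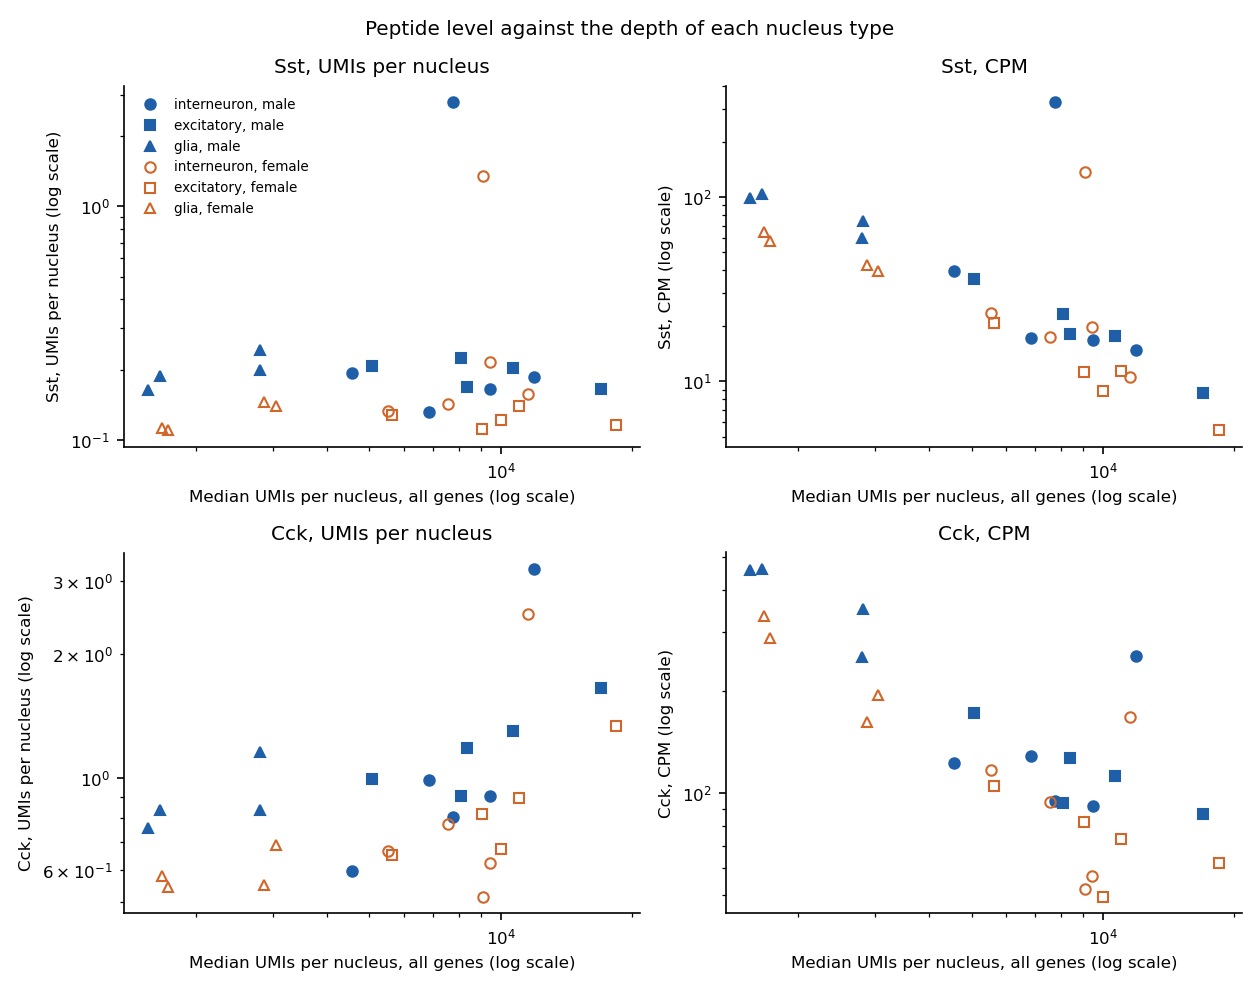
Level of Sst and Cck in each type (vertical axes, log scale) against the type's median UMIs per nucleus (horizontal axes, log scale), in UMIs per nucleus on the left and in CPM on the right, with 1 point per type and library. Of the types shown, glia (triangles) are the shallowest, and there the CPM of Cck and Sst is high although their UMIs per nucleus are not.

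The 6 sparse genes gave from 38 to 654 UMIs over all kept nuclei of a library, and most of what can be said of them rests on few molecules. Their highest level in any named type was 0.371 UMIs per nucleus. Totals do not separate them from the abundant genes, as Vip had 480 male and 382 female UMIs. Tac1 encodes substance P and neurokinin A. Per nucleus it was highest in the Pvalb-like nuclei, at 0.0897 UMIs in the male (13 UMIs) and 0.129 in the female library (12 UMIs). The Sst-like nuclei followed with 0.0621 and 0.0722. Male glia held up to 0.0155, and female glia up to 0.0417, in the oligodendrocyte precursors. Scaled to CPM, the female precursors (12.3) lay above the female Pvalb-like nuclei (11.8). The male Pvalb-like nuclei had 9.08 CPM and the male microglia 7.94. After thinning, a Tac1 UMI was left in 0% of male Pvalb-like nuclei and 0.679% of male microglia. In the female library it was left in 1.08% of Pvalb-like nuclei and 1.49% of oligodendrocytes. The female library had 536 Tac1 UMIs in its kept nuclei and the male 163, and interneurons held 7.09% of the former and 17.8% of the latter.

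Tac2, the precursor of neurokinin B, was highest in the Cck-like and Vip-like nuclei, the classes marked by Adarb2. The male Cck-like nuclei held 0.371 UMIs per nucleus (26 UMIs in 18.6% of 70 nuclei) and the male Vip-like 0.228 (13 UMIs), while the female values were 0.0789 and 0.0667, each from 3 UMIs. Glia held at most 0.00517 in the male and 0.00595 in the female. The whole GABAergic class had 41 male and 10 female Tac2 UMIs, and 3 of the female ones lay in unnamed and 1 in Pvalb-like nuclei.

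Cort encodes cortistatin, a relative of somatostatin that binds the same receptors. It was found in Sst-like nuclei at 0.103 (15 UMIs) and 0.0825 (8 UMIs) per nucleus and in Pvalb-like nuclei at 0.0483 (7 UMIs) and 0.118 (11 UMIs). The Sst-like values rest on few nuclei: 1 male nucleus held 8 of the 15 UMIs and 1 female nucleus 4 of the 8, and without them the levels were 0.0486 and 0.0417. The order of these types was not the same in the libraries, and their intervals overlapped. Glia held at most 0.0103 and 0.00595. Crh, corticotropin-releasing hormone of the stress response, was the scarcest member, with 40 UMIs over all male and 38 over all female nuclei. Vip-like nuclei held 3 and 4 of them (0.0526 and 0.0889 per nucleus) and Sst-like nuclei 3 and 7 (0.0207 and 0.0722). Of the 7 in the female Sst-like class, 5 came from 1 nucleus.

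Interneurons held 5.66% of the male and 2.60% of the female UMIs of the opioid precursor Penk and 2.97% and 4.92% of those of Pdyn, beside 7.66% and 6.76% of the UMIs of all genes. Penk encodes the enkephalins. Vip-like nuclei held 0.175 UMIs per nucleus in the male (10 UMIs) and 0.0667 in the female library (3 UMIs), CA1 pyramidal neurons 0.0560 and 0.0505, and glia 0.0205 to 0.0249 and 0.0159 to 0.0348. Fibroblast or meningeal nuclei, of which there were 32 and 76, held 0.125 (4 UMIs) and 0.276 (21 UMIs). Scaled to CPM, CA1 neurons held 6.03 and 5.07 and Vip-like nuclei 36.1 and 11.8, beside 15.1 and 20.1 in microglia, the highest glial class. The CA1 neurons and the female Vip-like nuclei thus lay below the microglia on that scale. Pdyn is the precursor of the dynorphins. Per nucleus it was highest in the dentate granule cells among the 5 interneuron, 5 excitatory and 4 glial types in both libraries. Granule cells held 0.0449 UMIs per nucleus in the male (181 UMIs, 0.0386 to 0.0519) and 0.0365 in the female (64 UMIs, 0.0281 to 0.0466). The female Lamp5-like nuclei came close, with 0.0357 from 3 UMIs. CA1 pyramidal neurons held 0.00924 and 0.00316, CA3 neurons 0.00930 and 0.00821, and glia at most 0.0140 and 0.0122. Outside these types, the 25 male choroid plexus nuclei (2 UMIs) and the 76 female fibroblast or meningeal nuclei (3 UMIs, 0.0395 per nucleus) had higher levels than the granule cells. No granule nucleus had more than 2 Pdyn UMIs. Scaled to CPM, granule cells held 7.78 and 5.89, beside 7.04 in male oligodendrocytes and 6.39 in female microglia, the highest glial classes. After thinning, a Pdyn UMI was left in 0.795% of male granule nuclei and 0.658% of male oligodendrocytes. In the female library it was left in 0.572% of granule nuclei and 1% of microglia. The named excitatory types held 69.3% of the male and 42.6% of the female Pdyn UMIs, beside 68.9% and 50.2% of the UMIs of all genes.

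**Figure D3:**
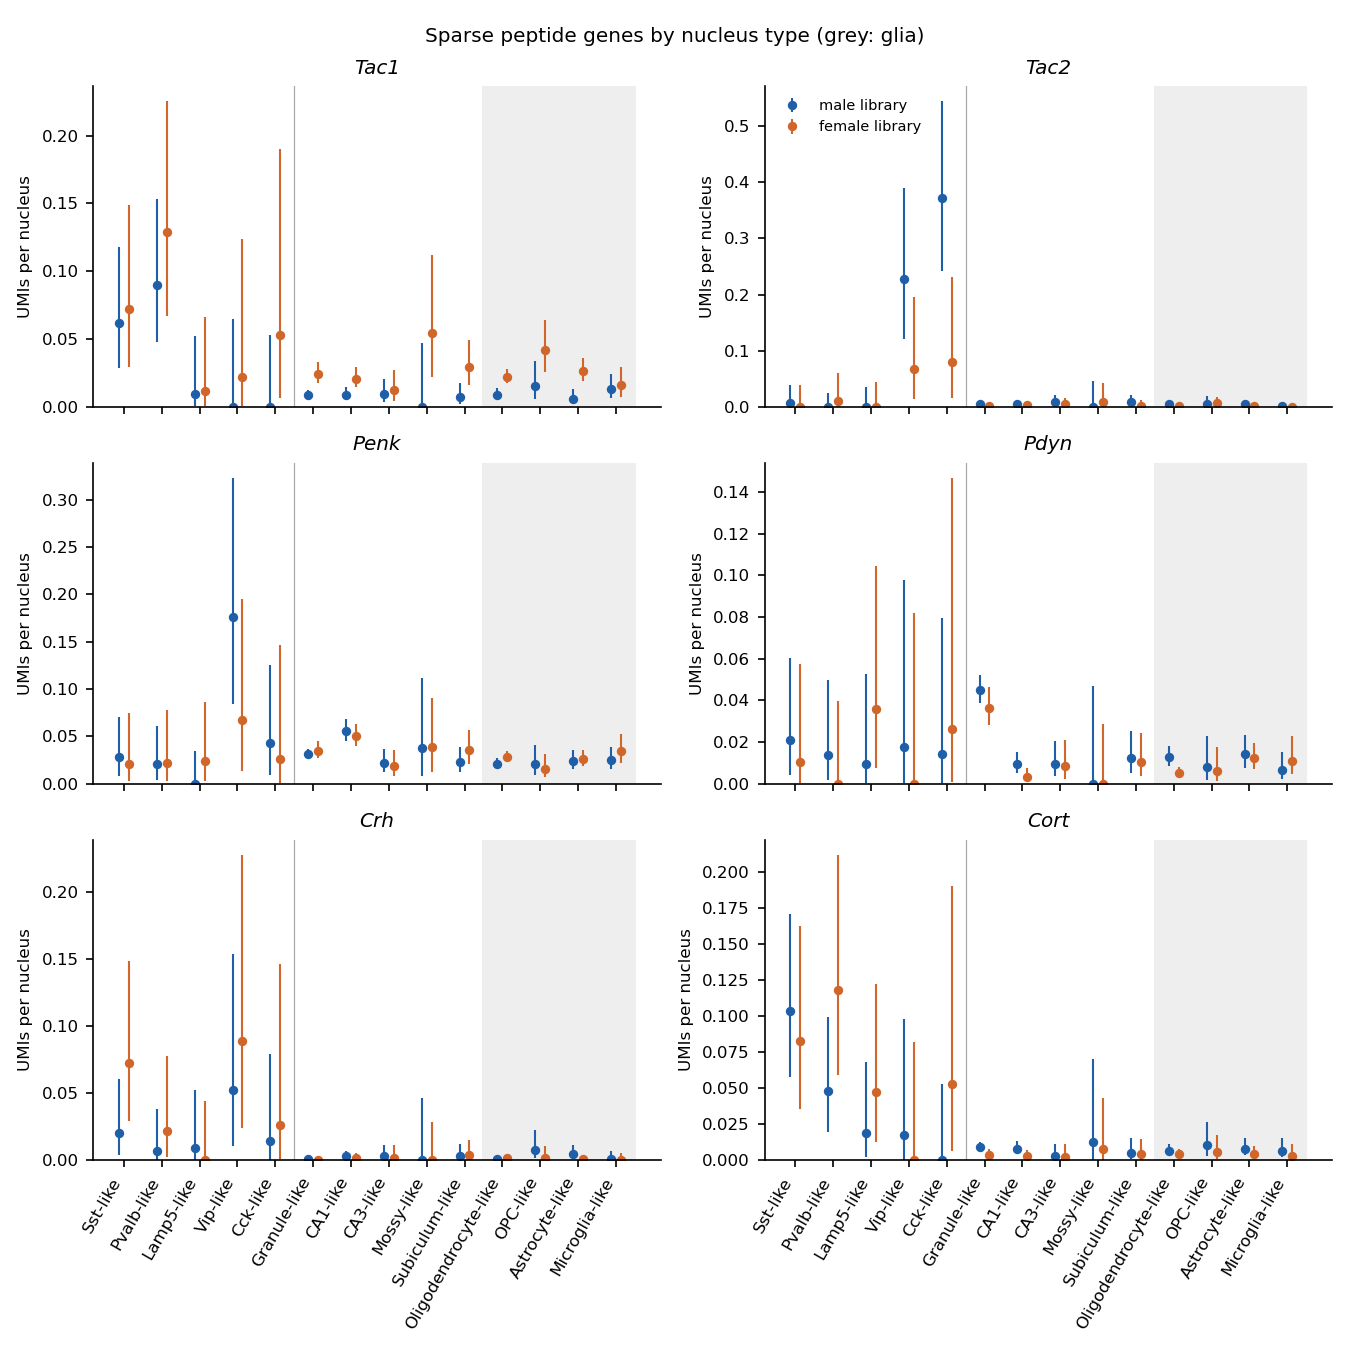
UMIs per nucleus (vertical axes) of Tac1, Tac2, Penk, Pdyn, Crh and Cort in the same 14 types (horizontal axes, glia on grey) of the male (blue) and the female (orange) library, with exact Poisson 95% intervals of counting error. Of the types shown, Pdyn is highest in granule cells (0.0449 and 0.0365), while Tac2 is highest in the male Cck-like nuclei (0.371).

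Of the 10 genes, 9 had their highest level per nucleus in an interneuron type in each library, over 14 types compared, as did 30.9% of all measured genes in the male and 34.5% in the female. In CPM this held for 8 members of the male library and 6 of the female, beside 32.2% and 32.4% of all genes. After thinning to 1000 UMIs per nucleus (357 male and 1153 female nuclei were shallower and dropped), the highest share of nuclei with a UMI was in an interneuron type for 7 members in each library, beside 39% and 38.7% of all genes. A gene was called above the glial background in a neuronal type if its level was at least 3 times that of the highest glial class and its Poisson interval lay above all glial intervals. In CPM this was met by 4 of 110 gene and type pairs in the male library, where 1.88% of all measured pairs met it, and by 2 of 110 in the female, where 2.13% did. Vip in the Vip-like nuclei was called in each library. Sst in the Sst-like and Tac2 in the Vip-like and Cck-like nuclei were called in the male library, and Crh in the Vip-like nuclei, on 4 UMIs, in the female. By UMIs per nucleus 12 of 110 pairs were called in each library, where 17.1% of all male and 20.9% of all female pairs were, so the members were not called more often than all measured genes. The pairs called per nucleus in each library were Sst, Npy and Cort in the Sst-like, Tac1 in the Pvalb-like, Npy in the Lamp5-like, Npy and Vip in the Cck-like and Vip in the Vip-like nuclei. Another 8 were called in 1 library. Pdyn in male granule cells was the only excitatory pair among the called ones. Of the pairs called in each library, 2 lean on single nuclei. Without the highest nucleus, Cort in the Sst-like nuclei had 0.0486 and 0.0417 UMIs per nucleus. For Vip in the female Cck-like nuclei, 9 of 11 UMIs came from 1 nucleus.

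The glial classes differed little in the proportions of the 3 most abundant members. Of all UMIs of the 10 genes in a glial class, Cck made up 63.5% to 70.4%, Sst 13.7% to 16.7% and Npy 6.35% to 9.88% over the 4 classes and both libraries. The sparse genes varied more, and Tac1 ranged from 0.361% in male astrocytes to 4.82% in female oligodendrocyte precursors. Interneurons made up 4.62% of male and 3.35% of female nuclei and held 15.9% and 9.23% of the Sst, 34.8% and 32.7% of the Vip, 15.7% and 12.7% of the Npy and 5.10% and 4.35% of the Cck UMIs. Beside the 7.66% and 6.76% of all genes' UMIs that lay in interneurons, the shares of Sst, Vip and Npy were higher and that of Cck lower. The 4 glial classes, 32.6% and 36.5% of the nuclei, held 27.9% and 30.5% of the Sst and 28.2% and 31.5% of the Cck UMIs, and 12.9% and 16.9% of the UMIs of all genes. In each library more Sst UMIs lay in glia (887 and 744) than in all interneurons (505 and 225).

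Within the classes, sub-clusters differed in their peptides. The Sst-like class had a sub-cluster led by Sema3a and Ccna1 (77 male and 49 female nuclei) and another led by Olfm3 and Zfpm2 (68 and 48). Sst was 3.60 and 1.49 UMIs per nucleus in the former and 1.87 and 1.21 in the latter. Npy was lower in the former, with 0.558 and 0.163, than in the latter, with 1.07 and 1.17. Cort had 0.0260 and 0 in the former and 0.191 and 0.167 in the latter. Thus Sst was higher in the Sema3a sub-cluster and Npy and Cort in the Olfm3 sub-cluster of each library, although the female Sst values lie close together. Detection of Npy differed little with that of Sst. Npy was seen in 26.5% of the 98 male Sst-like nuclei with Sst and in 27.7% of the 47 without, and in 25.9% of 54 and 23.3% of 43 female nuclei. Cort was seen in 12.8% of the 39 male Sst-like nuclei with Npy and in 2.8% of the 106 without, and in 12.5% of 24 and 2.74% of 73 female nuclei, at similar median depths of 8104 and 7764.5 UMIs in the male and 9194 and 9103 in the female.

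**Figure D4:**
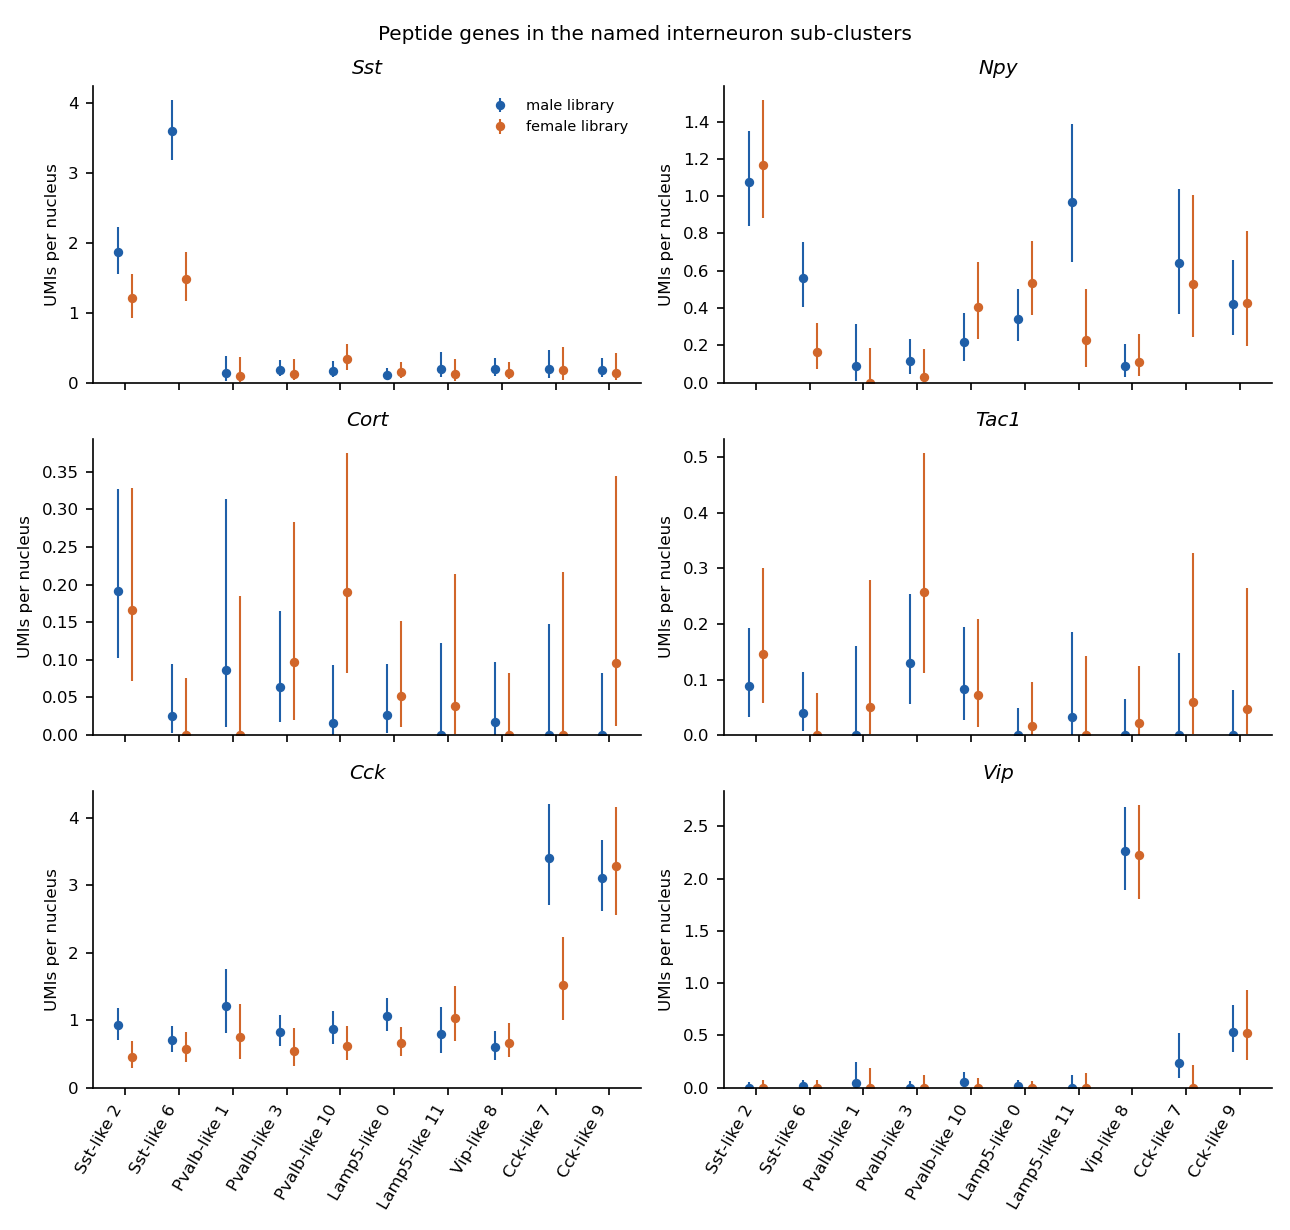
UMIs per nucleus (vertical axes) of Sst, Npy, Cort, Tac1, Cck and Vip in the 10 named interneuron sub-clusters (horizontal axes) of the male (blue) and the female (orange) library, with exact Poisson 95% intervals of counting error. Npy and Cort are higher in the Olfm3 sub-cluster (Sst-like 2: Npy 1.07 and 1.17) than in the Sema3a sub-cluster (Sst-like 6: 0.558 and 0.163).

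The Lamp5-like class held 2 sub-clusters. Its Kit and Ndnf sub-cluster had 0.967 male and 0.231 female Npy UMIs per nucleus, and its Hapln1 sub-cluster 0.342 and 0.534, so their order differed between the libraries. In the Cck-like class, the Col14a1 and Slc17a8 sub-cluster had 3.11 and 3.29 Cck, 0.533 and 0.524 Vip and 0.42 and 0.143 Tac2 UMIs per nucleus. The Itga8 sub-cluster had 3.40 and 1.53 Cck, 0.280 and 0 Tac2 and 0.240 and 0 Vip, and all 6 of its male Vip UMIs came from 1 nucleus. All 10 male Cck-like nuclei with Vip and all 13 with Tac2 also had Cck, which was seen in 82.9% of the class. Npy went the other way in the male Cck-like class, where it was seen in 20.7% of the 58 nuclei with Cck and in 66.7% of the 12 without. The latter share rests on few nuclei of 1 library, and the female shares are not given here. Among Pvalb-like sub-clusters, Tac1 was highest in that of Mybpc1 and Slit2 (0.129 and 0.258) in each library. The Tll1 and Syt2 sub-cluster had 0.0167 and 0.190 Cort and 0.217 and 0.405 Npy. An unnamed GABAergic sub-cluster led by Rmst had 0.586 and 0.50 Sst and 0.724 and 0.426 Npy UMIs per nucleus. Per nucleus this was above all 4 glial classes of each library. The sub-cluster was deep, with a median of 16636 UMIs beside 1653.5 in male oligodendrocytes, and its level in CPM is not given here.

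The male library had more Sst than the female in the GABAergic class as a whole. Male to female ratios were taken as log2 of CPM plus a pseudocount of 5 CPM, which understates the change of low genes. Over the whole GABAergic class, 505 male and 225 female Sst UMIs gave 84.3 and 38.0 CPM and a log2 ratio of 1.05 (0.85 to 1.26), where 0.413% of 12341 genes lay past 2-fold. Sst was the only one of the 7 members with enough UMIs that lay past 2-fold there. The female class held 73 nuclei of an unnamed sub-cluster led by the oligodendrocyte genes Bcas1, Mobp and Mbp and the male class 2, and without the unnamed nuclei the Sst ratio was 0.93, below 2-fold, and the Npy ratio 0.27, an alternative chosen after seeing the data. Tac2 followed with 0.82 (0.45 to 1.12, 41 and 10 UMIs), Npy with 0.65 (0.42 to 0.88), Cck with 0.50 (0.34 to 0.66) and Vip with 0.33 (0.05 to 0.62). Tac1 at -0.22 and Cort at -0.06 had intervals that included 0.

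By type, 29 gene and neuronal type pairs reached 50 UMIs in the libraries together, and 2 of them lay past 2-fold, where 0.907% of all pairs did. They were Sst in the Sst-like nuclei, with 326 and 137 CPM and a ratio of 1.23 (0.95 to 1.51), and Sst in the subiculum or entorhinal neurons, with 23.1 and 8.88 CPM and a ratio of 1.02 (0.69 to 1.34). Sst, Npy and Cck were also higher in the male oligodendrocytes and astrocytes, while the Npy ratio in oligodendrocyte precursors was 0.06 (-0.53 to 0.65). In oligodendrocytes the ratios were 0.79, 0.74 and 0.67, and in astrocytes 0.82, 0.98 and 0.83. When the mean glial level of each library was subtracted first, the Sst ratio was 1.45 in the Sst-like nuclei. Over the GABAergic class it was 0.04, where the male level of 84.3 CPM lay below that of the highest male glial class (104 CPM). Vip in the Vip-like nuclei, with 465 and 392 CPM, had a ratio of 0.25 (-0.14 to 0.63). Tac1 went the other way in granule cells (-0.46, -0.67 to -0.24) and in oligodendrocytes (-0.76, -1.13 to -0.35). These ratios compare 2 libraries, not sexes.

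**Figure D5:**
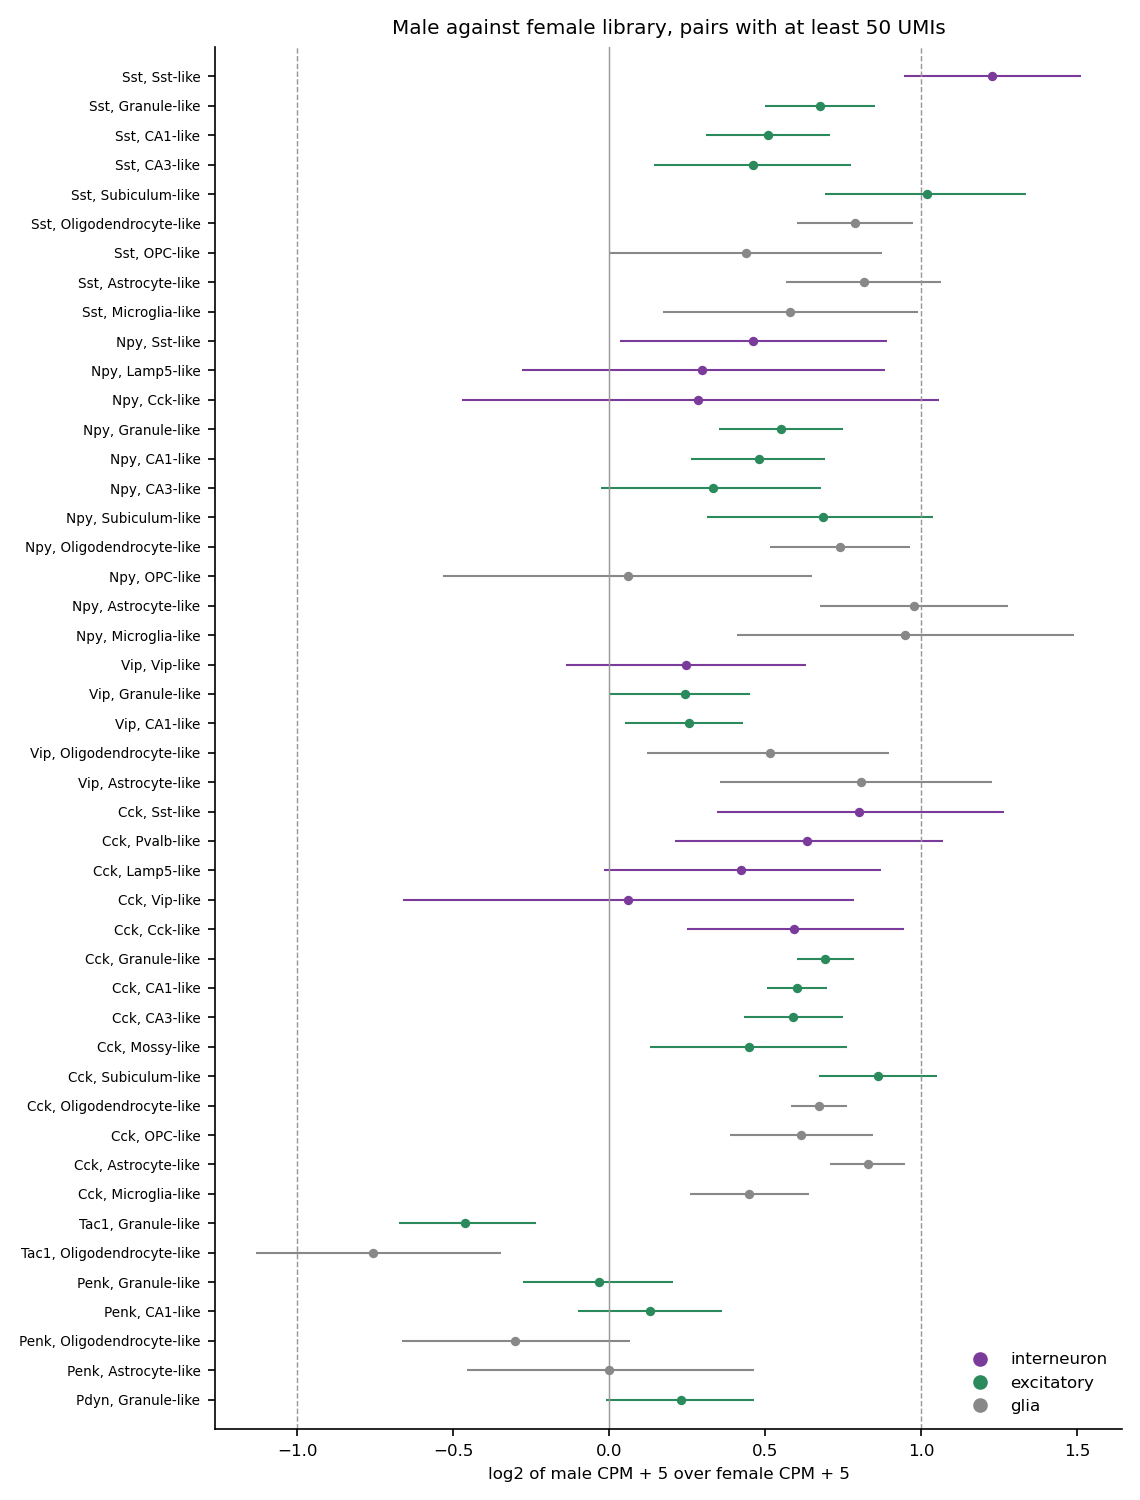
Log2 ratio of male to female CPM with 5 CPM added (horizontal axis) for each pair of a member and a type with at least 50 UMIs over both libraries (vertical axis), with 95% intervals of counting error and dashed lines at 2-fold. Sst lies past 2-fold in the Sst-like nuclei (1.23), and its glial ratios (grey) lie between 0.44 and 0.82.

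The other genes of peptide signalling were taken from 3 lists. Of 20 peptide receptor genes, 10 had at least 50 UMIs in the GABAergic class, 7 of these were higher in the male library, and 0 lay past 2-fold, with a median log2 ratio of 0.22. Of 16 genes of prohormone processing and dense core vesicles, 16 were measured, 6 with the higher level in the male library and 10 with the lower, with a median of -0.08. Of 16 other peptide precursors 3 were measured, with a median of -0.29. Igf1 was lower in the male library, at -0.32 (-0.46 to -0.17), and the intervals of the others included 0. Over all measured genes of the class 65.3% were higher in the male library, with a median log2 ratio of 0.09. The receptor genes with the largest ratio were Npy1r at 0.91 and Oprd1 at 0.70, and the lowest value of the lists was Pcsk1, a prohormone convertase, at -0.68. By UMIs per nucleus, 23.6% of the male and 29.5% of the female receptor and type pairs were above the glia. The processing pairs gave 25.6% and 40.3% and the other precursor pairs 10.2% and 10.8%, beside the 17.1% and 20.9% of all genes. In CPM the receptor pairs gave 3.64% and 6.36%, the processing pairs 7.95% and 12.5% and the other precursor pairs 3.41% and 3.98%. All measured pairs gave 1.88% and 2.13% in CPM.

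Receptors of these peptides were also counted by type. Npy1r, a receptor of neuropeptide Y, had 0.814 and 0.342 UMIs per nucleus in the Cck-like nuclei and 0.297 and 0.301 in granule cells. Npy2r had 0.267 and 0.189 in CA3 neurons. Oprd1, the delta receptor of enkephalins, had 1.31 and 0.774 in Pvalb-like and 0.614 and 0.505 in Sst-like nuclei, and Oprm1, the mu receptor, 1.48 and 1.33 in Lamp5-like nuclei. Oprk1, the receptor of dynorphin, had 0.166 and 0.237 in Sst-like nuclei. Tacr1, the receptor of substance P, had 0.462 and 0.571 in Lamp5-like nuclei. Vipr1, a receptor of vasoactive intestinal peptide, had 0.646 and 0.519, and Crhr1, a receptor of Crh, 0.380 and 0.209 in mossy cells. Levels of different genes are not compared, because capture differs between transcripts.

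Likeness of pattern was measured over 36 points, each a named type in a library, by Pearson's r of log2(CPM + 5), as a description of points that share depth and library. The gene most like Vip was Gm39185 (0.83), a leading gene of the Vip-like cluster. Tac2 was most like Vip itself (0.83), and Crh like Myl1 (0.80). Cort was most like Alkal2 (0.82) and Sp9 (0.82), and Npy like Rxra (0.72) and Slc32a1 (0.72), the vesicular GABA transporter. The nearest genes of the other members peaked outside the neurons: Lsm5 (0.75) for Sst in endothelial nuclei, and Mtrf1l (0.77) for Tac1, Psmd2 (0.81) for Penk and Tpgs1 (0.73) for Pdyn in fibroblast or meningeal nuclei. Cck, with r = 0.91, was most like Aplp1, which is highest in CPM in types of low depth, as Cck is.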

How the data were processed

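The values used were raw UMI counts per gene and barcode in 2 droplet libraries of nuclei (3' v3.1 chemistry per the labels' protocols, 10000 nuclei aimed at in each). The authors deposited these counts and, per the file headers, Cell Ranger 7.0.1 wrote them. bcl2fastq 2.20.0.422 and the mm10 build are named in the submitters' processing notes. Which gene annotation was used, whether intronic reads were counted and how barcodes were called is not given in the sources used here. Counts of genes that lie close to or overlap another gene depend on that rule.

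Barcodes were kept if they had 500 genes or more and no more than 5% mitochondrial UMIs (16034 male, 19251 female). Doublets were called with Scrublet in scanpy 1.11.5 at an expected rate of 8%. The automatic threshold marked 9.57% of male and 0% of female barcodes, and in the female library the top scores were called instead (7.51%), so the libraries differ in this step. Clusters with over 40% called nuclei were removed (6 of 34). Counts were scaled to a common total and log-transformed, and 3000 variable genes, 40 principal components and 15 neighbours went into Leiden clustering at resolution 1. The 10 members, Stra8, sex-linked and mitochondrial genes were left out. GABAergic clusters were clustered again (2000 genes, 20 components). A name needed at least 3 of 8 markers over 2-fold at 20 CPM, and over 1.5-fold for sub-clusters, a value set after the data were seen. Of the kept nuclei, 1443 male and 5217 female were in clusters left unnamed.

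UMIs were summed per library and type. Intervals are 95% (exact Poisson for levels, Clopper-Pearson for shares, conditional binomial for ratios) and cover counting error only. A ratio was read where a gene had at least 50 UMIs over both libraries. With 1 library per group no test was made. On simulated counts for 12338 genes in the GABAergic class, all of 200 genes changed by known folds were recovered (100%) and 0 of 12138 unchanged genes passed 2-fold. The changed genes had at least 200 UMIs and were changed by well over 2-fold. Counts were drawn with Poisson error only, without the uneven spread over nuclei seen in the data. The simulation therefore does not check genes near 50 UMIs, changes near 2-fold or the effect of single high nuclei. The alternatives were stricter filters, no doublet removal, thinning to 1000 UMIs, another glial reference, folds of 2 and 5, pseudocounts of 1 and 20 CPM, centring, subtraction of the glial mean, clustering with the members, and other resolutions. Leaving out the highest nucleus or the unnamed GABAergic nuclei, and the repeats per nucleus, were added after the data were seen.

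The members, lists and rules were chosen with earlier results of these data known. All 10 members are named. Of the lists, the genes with the 4 largest and 4 smallest ratios could be named, plus receptors beside a member they bind, and for likeness the 2 genes with the highest r.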

Additional observations from a re-analysis of the deposited data

Results flagged for a closer look

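Vip was found in a cluster that the markers could not name and that enters none of the comparisons above. The cluster is led by 6330411D24Rik, Pld5, Ebf2 and Ebf1 and holds 51 male and 943 female nuclei. Over both libraries its median was 7061.5 UMIs, beside 2809.5 in male and 3048 in female astrocytes, the highest glial class for Vip per nucleus. Its levels in CPM are not given here. In the male library Vip had 0.314 UMIs per nucleus there, 7.83 times the level of the highest glial class (0.0401). The 16 UMIs lay in 4 of the 51 nuclei, with 7 in 1 of them. In the female library Vip had 0.0392 there, 2.32 times the highest glial class.

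Penk was found in the same unnamed cluster of the female library, at 0.125 UMIs per nucleus, 3.60 times the highest glial class (0.0348). That class, the microglia, was shallower than the cluster, with a median of 1672 UMIs, and the cluster's Penk level in CPM is not given here. Penk had 118 UMIs in 55 of the 943 nuclei, of which 11 had 3 or more and 1 had 17. In the same female nuclei Tac1 had 0.101 UMIs per nucleus, with 3 or more in 5 nuclei, and 16 nuclei had 3 or more Sst UMIs.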

How the results depend on the processing

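The counts of pairs above the glia depend on the scale and the filter. In CPM, 4 male and 2 female pairs of 110 were called. With a filter of 1000 genes or more and no more than 1% mitochondrial UMIs, 1 was called in each library, after thinning 2 and 1, against the lowest glial class 10 and 6, and per nucleus 12 and 12. At interneuron resolution 2 it was 1 of 100 and 0 of 90, with fewer types left to compare. Without the UMIs of the highest nucleus of each type, an alternative chosen after seeing the data, the female count was 1. Per nucleus, also added after seeing the data, the count of 12 in each library became 6 in the female with the stricter filter, 2 and 1 after thinning, and 4 of 90 in the female at resolution 2. Of the pairs between libraries, 2 of 29 lay past 2-fold, 1 with a pseudocount of 20 CPM, 1 when centred on the median gene, 1 after subtraction of the glial mean, and 4 of 30 when the members were kept in the clustering. The cause was not tested. The Sst ratio in the Sst-like nuclei ranged from 1.08 to 1.45 over the alternatives, and that over the GABAergic class from 0.04 to 1.24, with 0.93 when the unnamed nuclei were left out. The Npy ratio in the Sst-like nuclei ranged from -0.04 to 0.59. No paired analysis was possible because each group has 1 library. Depth limits the 6 sparse genes most, which had at most 26 UMIs (Tac2) in any named interneuron type of a library.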

Other observations

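Npy was also seen in GABAergic nuclei that the markers could not name. A sub-cluster led by Rgs12 and Syt6 had 1.00 Npy UMIs per nucleus in the male (43 UMIs, 43 nuclei) and 0.217 in the female library (5 UMIs, 23 nuclei). The male UMIs lay in 16 nuclei, with 14 in 1 of them.

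A shallow unnamed cluster led by Ywhah and Dynll2 had 1.42 Cck UMIs per nucleus in 633 male nuclei and 0.753 in 829 female nuclei, at a median of 1332 and 975 UMIs. These levels were 1.23 and 1.09 times those of the highest glial class, the astrocytes, so neither met the 3-fold rule per nucleus. The astrocytes were deeper, with a median of 2809.5 and 3048 UMIs, and the cluster's level in CPM is not given here.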
